A study of Mus musculus with 16 samples.

Results

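Cells of the mouse coronal suture heterozygous for Twist1 (Twist1+/-) were compared after 7 days and after 3 days in culture. Members were chosen by their labels: all 8 Twist1+/- arrays of a series of 16, 4 at each day. They formed 4 pairs, since the female and the male culture were each sampled at both days in control medium and in medium with thyroxine. The question was which genes changed with time in culture in these cells, whichever medium they were kept in.

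All cells came from 2 litters holding both wild-type and Twist1+/- mice of the C57BL6 background, and cells of a genotype and sex were kept together. Neither the animals' age and number per culture nor the Twist1 allele is stated in the sources used here. With 1 culture per genotype and sex, p-values measure the spread between pairs of arrays of these cultures. Control medium was DMEM with antibiotics, an antifungal and 10% fetal bovine serum, and treated wells also had thyroxine at a log10 concentration of -6 in mol per liter. Each well was seeded with 65000 cells, each condition had 3 wells, and each array was labelled from 100 ng of total RNA. The 8 wild-type arrays had the same layout of sexes, media and days.

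The coronal suture joins the frontal and parietal bones by fibrous tissue, and its mesenchyme holds the progenitors of the bone forming at its edges. Twist1 encodes a transcription factor of that mesenchyme with a basic helix-loop-helix domain, and loss of 1 copy causes early fusion of the coronal suture in mice and in people with Saethre-Chotzen syndrome. Primary cultures of calvarial cells commonly hold macrophages beside stromal cells. Stromal cells on plastic lay down matrix, form contractile actin bundles and divide until they become crowded.

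Values are log2 expression per probe set, so a difference of 1 is a change by a factor of 2. Array medians lay between 3.73 and 3.86. Of 22180 genes, 13453 passed the filter on low values (a mean level of 3.905 over the 16 arrays) and were tested, and 8727 were left out. The suture mesenchyme markers were present on every Twist1+/- array: the mean level of the 12 tested genes was 9.64 to 9.83 at 3 days and 9.43 to 9.74 at 7 days, far above the array medians. Twist1 itself lay between 6.51 and 7.55 on the Twist1+/- arrays and between 6.07 and 7.70 on the wild-type arrays. These ranges overlapped, so the genotype labels could not be checked by its level, and the sources used here do not say whether its probe set lies in the deleted part. Xist, which is made from the inactive X chromosome, lay between 5.31 and 7.54 on the 4 arrays labelled female and between 3.06 and 3.22 on the 4 labelled male. The 2 Twist1+/- control arrays at 7 days stood apart for a set of genes described below, so counts are also given without them. Those counts rest on the differences of the thyroxine pairs alone. The wild-type male culture stood apart from the other cultures in its macrophage genes, as described with the wild-type comparison.

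Between 3 and 7 days, 2776 of the 13453 genes tested passed an adjusted p of 0.05 (20.6%), with 1614 higher at 7 days (12%) and 1162 lower (8.64%). The counts given for each gene list below are to be read beside these shares. The rises included nearly all macrophage markers tested, and the falls included genes of the contractile cytoskeleton, network collagens, sterol synthesis and mitosis. Rises were also larger: 332 called genes were higher by over 1 on the log2 scale and 32 were lower by over 1, while 13 were higher by over 2 and 0 were lower by over 2. The median difference was 0.575 among the genes called higher, -0.44 among those called lower and -0.02 over all genes tested. All 4 pairs had the same sign in 2660 of the called genes and not in the other 116. The 3-day and 7-day arrays did not overlap for 2748 of all genes tested (20.4%), and 2089 of these passed the test. When each array was centred on its median, which moved differences by -0.0625, 1363 genes were higher (10.1%) and 1796 lower (13.4%), so that 43.1% of calls were rises instead of 58.1%. Leaving out the female thyroxine pair left 1228 genes higher and 673 lower. Without the 7-day control arrays, 864 genes were higher (6.42%) and 662 lower (4.92%). In that fit every control array left was from 3 days, so its differences are those of the thyroxine pairs. It is no check of the change in control medium. Of the 1526 genes called in that fit (11.3%), 1397 were among the 2776, which is 91.5% of the smaller and 50.3% of the larger set. The sign was kept in 2775 of the 2776. Since the thyroxine pairs are also part of the main fit, this overlap and shared sign are not independent of it.

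**Figure D1:**
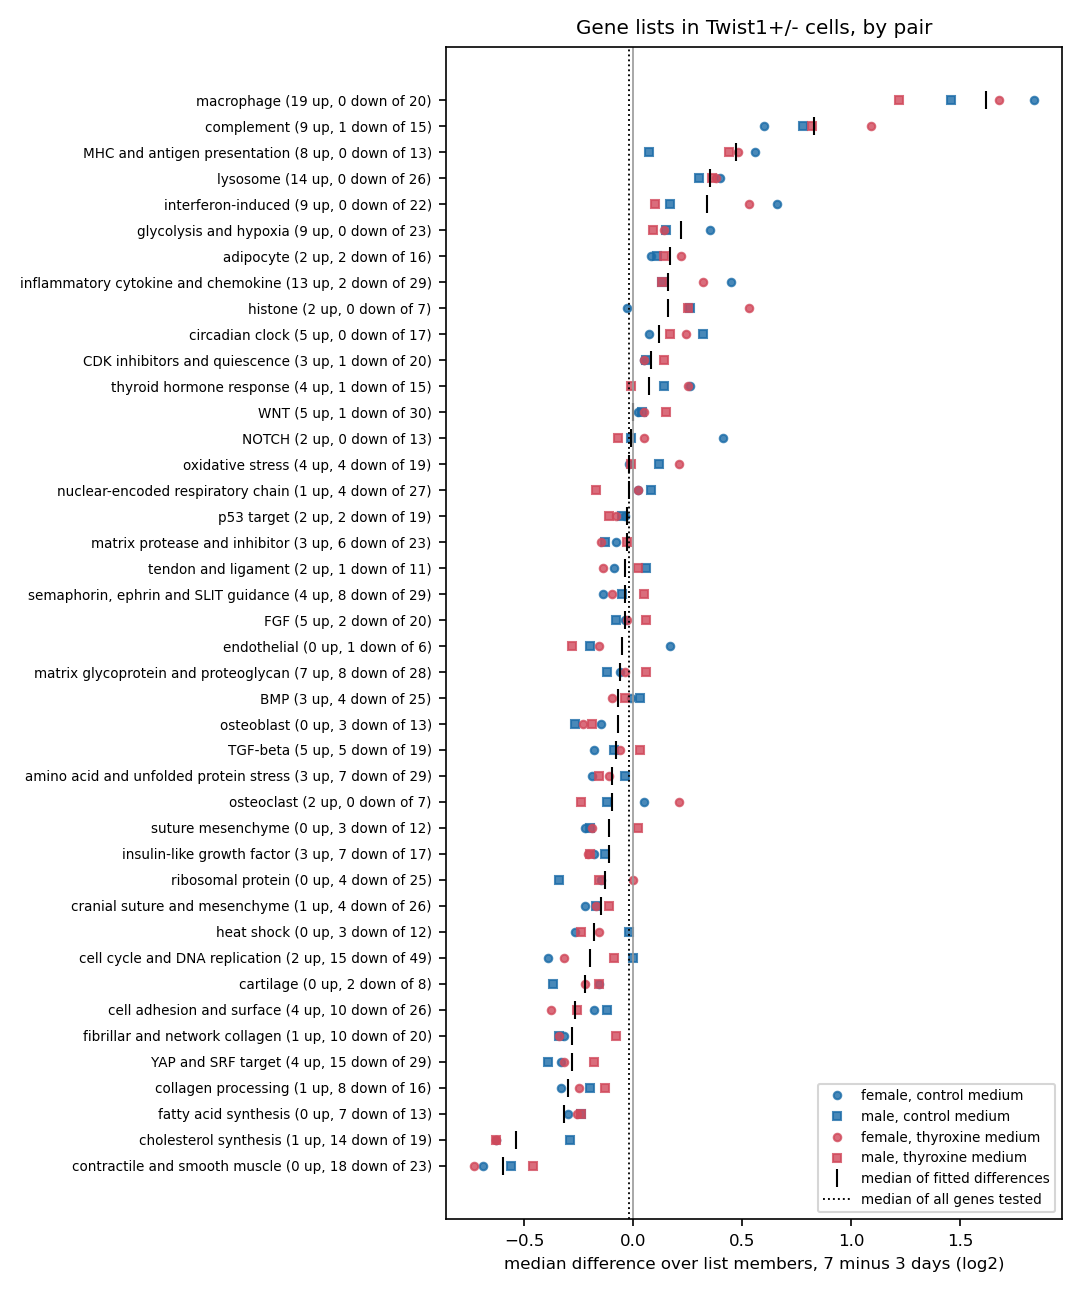
Median difference between 7 and 3 days over the tested members of each gene list (log2), for each of the 4 Twist1+/- pairs (circles female, squares male, blue control medium, red thyroxine medium), for the fitted differences (black bars) and for all 13453 genes (dotted line, -0.02). The macrophage list lies farthest to the right with a median of 1.62 and the contractile list farthest to the left with -0.60.

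Macrophage genes rose together in all 4 pairs. Of 20 tested markers, 19 were higher at 7 days and 0 lower, with a median difference of 1.62, and 17 were higher without the 7-day control arrays. Mpeg1, which encodes the pore-forming protein perforin-2 of macrophages, read 8.44, 8.48, 8.84 and 9.16 on the 3-day arrays (female control, female thyroxine, male control and male thyroxine, an order kept below) and 10.69, 10.59, 10.76 and 10.75 at 7 days. The days did not overlap, the 7-day arrays lay close together and the male thyroxine array was the highest at 3 days. Its difference was 1.97 ± 0.10 (SE, 4 pairs), a 3.91-fold rise, with an adjusted p of 1.3e-07. Cd68, a lysosomal glycoprotein of macrophages, went from 9.19, 9.05, 9.41 and 10.0 to 11.36, 11.23, 11.4 and 11.4 (difference 1.94, adjusted p 2.62e-07). Csf1r, the receptor for the macrophage growth factor Csf1, went from 8.64, 8.43, 8.90 and 9.18 to 10.24, 10.01, 10.20 and 10.26 (difference 1.39, adjusted p 5.27e-07). The male thyroxine array again had the highest 3-day value of both genes. Its smaller rise set the low end of the pair differences, which were 1.60, 1.58, 1.30 and 1.08 for Csf1r.

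The surface receptors Adgre1, Mrc1, Trem2 and Cx3cr1 were higher by 1.80, 1.77, 1.94 and 1.62, and the signalling adaptor Tyrobp by 1.85. Marco, a scavenger receptor, was the tested marker that did not pass, at -0.32 with an adjusted p of 0.176. Cd163 was below the filter on low values. The calls of Aif1 and Clec7a were lost without the 7-day control arrays (adjusted p 0.111 and 0.188), and that of Clec7a also without the male control pair (0.0548). The mean level over the 20 genes was 7.2 to 7.94 on the 3-day arrays and 8.87 to 9.09 on the 7-day arrays. In bulk RNA a larger share of macrophages and more RNA of these genes per macrophage cannot be told apart.

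The 12 genes with the largest rise in their least-changed pair were taken next, and several are known from macrophages. Nxpe5, a member of the neurexophilin and PC-esterase family, had the largest mean rise of the 2776 called genes, from 5.02, 4.85, 5.34 and 5.73 to 7.91, 7.65, 8.42 and 8.15. It was 6.95-fold higher, by 2.80 ± 0.12 (SE, adjusted p 4.31e-08), and the days lay far apart. C3ar1, the receptor for complement fragment C3a, went from 7.51, 7.42, 7.86 and 8.22 to 9.77, 9.72, 10.08 and 10.06, a 4.45-fold rise. The innate RNA sensors Tlr7 and Tlr8 rose by 2.00 and 2.39, the sialic acid receptors Siglec1 and Cd33 by 2.01 and 2.42, and the Fc receptor-like gene Fcrls by 2.34. Csf2rb2, a receptor subunit for interleukin 3, rose by 2.10, the membrane protein Ms4a6d by 2.11 and the Ras-association gene Rassf4 by 2.13. Hpgd, which breaks down prostaglandins, rose by 2.39 from 5.5 ± 0.34 (SD, n = 4) to 7.88 ± 0.06 (SD, n = 4). Wfdc17 rose by 2.06. The 12 genes passed with adjusted p values between 4.31e-08 and 3.52e-07.

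Markers of other cell types behaved otherwise. Of 7 tested osteoclast markers 2 were higher: Tnfrsf11a, the receptor for RANKL, by 0.92 and Nfatc1 by 0.31, the second of which lost its call when any single pair was left out (adjusted p 0.0548 to 0.213) and without the 7-day control arrays (0.0596). The proteases Ctsk and Acp5 gave -0.22 and 0.13 and did not pass, and Calcr, Dcstamp and Atp6v0d2 were below the filter. Of 6 tested endothelial markers 0 were higher and 1 was lower (Ptprb, -0.43, adjusted p 0.208 without the 7-day control arrays, 0.113 without the female control pair and 0.0754 without the male thyroxine pair). All 12 mast cell and granulocyte markers were below the filter, and the lymphocyte list, with 2 tested genes, had 0 calls. The mean level of the osteoclast markers was 5.66 to 6.02 at 3 days and 5.75 to 6.08 at 7 days. That of the endothelial markers was 4.44 to 4.63 and then 4.39 to 4.62. Neither list's levels separated the days, unlike those of the macrophage list. Of the other marker lists, 1 of 3 tested epithelial genes was higher (Cdh1, 0.71), 1 of 7 neuronal and glial genes lower (Stmn2, -0.66), 2 of 9 skeletal muscle genes lower (Chrna1 and Acta1, -0.86 and -0.48) and 0 of 2 erythroid genes called.

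Immune effector genes rose beside the macrophage markers. Of 15 tested complement genes 9 were higher (60%, beside 12% of all genes) and 1 lower, with a median of 0.83. Both counts were the same without the 7-day control arrays. C1qa, C1qb and C1qc, the chains of the complement starter C1q, rose by 1.76, 1.62 and 1.71. C1qa ranged over 7.82 to 8.90 at 3 days and 10.00 to 10.37 at 7 days. C5ar1, the receptor for C5a, rose by 1.65, the activator properdin (Cfp) by 1.34 and the C1 inhibitor Serping1 by 1.02. Masp1, a protease of the lectin pathway, was the gene that fell, from 9.71, 9.76, 9.92 and 9.64 to 9.01, 9.11, 9.08 and 9.09.

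Lysosomal genes rose in 14 of 26 tested (53.8%, beside 12% of all genes) and fell in 0, with a median of 0.35. Without the 7-day control arrays 11 were higher. Ctss, a cathepsin that trims the class II invariant chain in antigen-presenting cells, went from 8.59, 8.59, 9.05 and 9.14 to 10.80, 10.49, 10.89 and 10.56. That was a 3.59-fold rise with an adjusted p of 2.36e-07, the largest of the list. Lipa, which hydrolyses cholesteryl esters, rose by 1.00, and the glycosidases Naglu and Man2b1 by 0.79 and 0.76. The membrane proteins Lamp1 and Lamp2 gave 0.01 and 0.21 and did not pass.

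Of 13 tested antigen presentation genes 8 were higher (61.5%, beside 12% of all genes) and 0 lower. Without the female thyroxine pair 5 were higher, and without the 7-day control arrays 7. H2-K1, a class I heavy chain, rose by 1.07 from 7.30, 7.5, 7.98 and 8.29 to 8.61, 8.80, 8.79 and 9.14, and Psmb8, an immunoproteasome subunit, rose by 0.87. H2-DMa, which loads class II molecules, rose by 0.94, while the class II genes H2-Ab1 and H2-Eb1 gave 0.14 and -0.12 and did not pass.

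Among 29 tested cytokine and chemokine genes 13 were higher (44.8%, beside 12% of all genes) and 2 lower, and 12 and 2 without the 7-day control arrays. The chemokines Ccl3, Ccl4, Ccl6 and Ccl8 rose by 1.79, 1.45, 1.95 and 1.72 and the cytokine Tnf by 1.21. Ccl3 ranged over 6.72 to 7.95 at 3 days and 8.88 to 9.17 at 7 days. Il33, an alarmin of stromal cells, rose by 1.51 from 5.89, 5.74, 6.57 and 6.59 to 7.51, 7.44, 8.11 and 7.78, and the stromal chemokine Cxcl12 by 0.84. Csf1, the growth factor that maintains macrophages, fell by 0.78 from 11.14, 11.28, 11.13 and 10.97 to 10.17, 10.30, 10.52 and 10.41, in the opposite direction to its receptor. Ptgs2, the inducible cyclooxygenase, fell by 0.66. Il6 was 0.51 higher with an adjusted p of 0.0202, but the male thyroxine pair gave 6.08 and 6.03, and the call was lost without the female control pair (0.121), the female thyroxine pair (0.107) or the 7-day control arrays (0.329). The chemokines Ccl2, Cxcl1 and Cxcl5 gave -0.07, -0.06 and -0.11 and did not pass. The part of the macrophage genes' rise in these immune groups was not tested.

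Interferon-induced genes were higher in 9 of 22 tested (40.9%, beside 12% of all genes) and lower in 0, with a median of 0.34. Bst2, which tethers budding virus to the cell surface, went from 8.61, 8.63, 9.25 and 9.52 to 10.18, 10.19, 9.98 and 10.34, and the oligoadenylate synthetases Oas2, Oas3 and Oasl2 rose by 1.04, 0.70 and 0.86. The list's median pair difference was 0.66 and 0.53 in the female pairs and 0.17 and 0.10 in the male pairs (control and thyroxine). Without the female control pair 6 genes were higher, without the female thyroxine pair 6, and without the 7-day control arrays 4. Promoters of these genes are shown because interferon-activated factors bind a response element, searched here as GAAA followed by any 2 bases and GAAA. In RefSeq promoter windows from 250 bases before to 50 after the gene start (GRCm38.p6; windows for 7 of the 9 called genes), the element was present on either strand in 5 of 8 windows (62.5%) and in 3.44% of all 32851 windows. Of Bst2 and Rsad2, the latter an antiviral enzyme that rose by 0.57 (call lost without the female thyroxine pair, adjusted p 0.052, and without the 7-day control arrays, 0.0703), the 250 bases before the start are given 5′ to 3′ on the gene's strand, with the element in capitals. In Bst2 it occurs in 2 overlapping copies, and in Rsad2 it lies on the opposite strand and reads as TTTC, 2 bases and TTTC.
Bst2, chr8:71537473-71537722, minus strand: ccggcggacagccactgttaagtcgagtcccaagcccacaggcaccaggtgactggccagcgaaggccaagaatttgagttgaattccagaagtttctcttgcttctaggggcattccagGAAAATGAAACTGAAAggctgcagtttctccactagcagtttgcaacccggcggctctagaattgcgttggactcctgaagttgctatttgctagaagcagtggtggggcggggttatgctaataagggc
Rsad2, chr12:26456453-26456702, minus strand: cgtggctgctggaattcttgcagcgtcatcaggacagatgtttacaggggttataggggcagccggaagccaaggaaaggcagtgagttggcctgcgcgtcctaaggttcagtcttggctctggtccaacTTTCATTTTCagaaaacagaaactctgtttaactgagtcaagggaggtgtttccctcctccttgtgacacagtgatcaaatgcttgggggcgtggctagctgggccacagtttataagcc
The elements start 130 and 124 bases before the gene start in Bst2 and 120 in Rsad2. The list is one of known interferon targets, so the share describes the list and shows no binding in these cells.

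**Figure D2:**
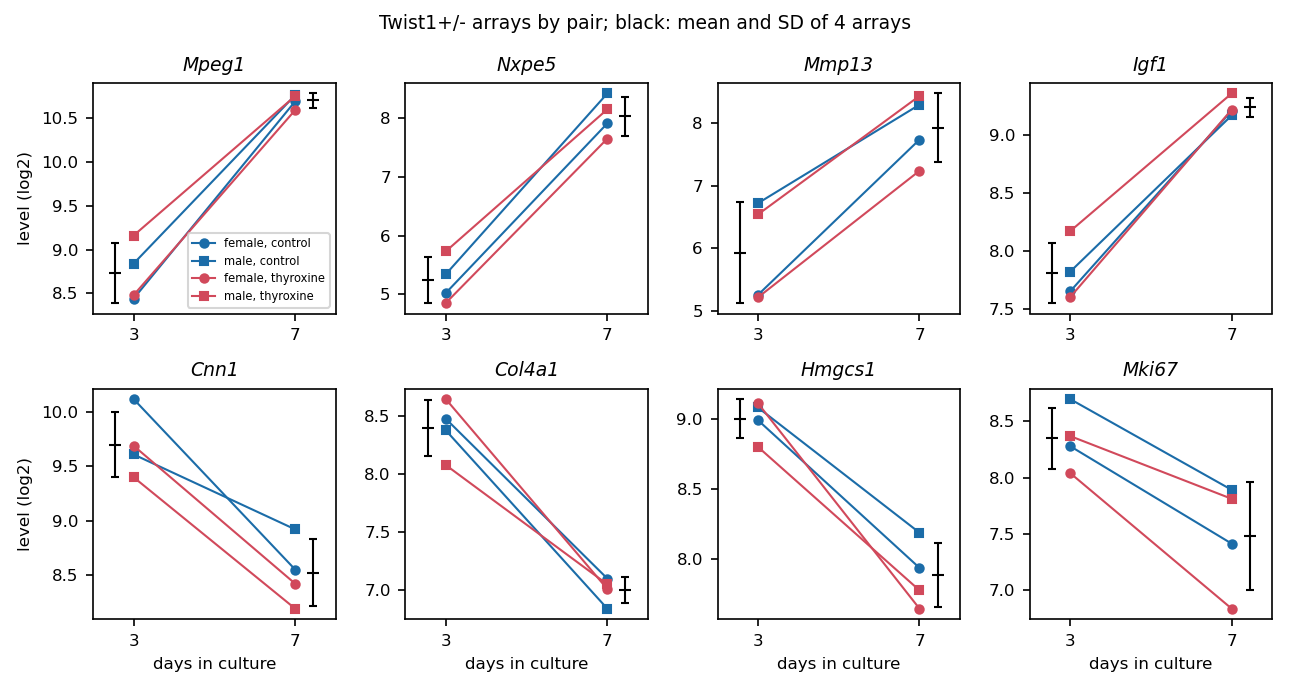
Levels (log2) of 8 genes at 3 and 7 days in Twist1+/- cells, 1 line per pair (circles female, squares male, blue control medium, red thyroxine medium), with the mean and SD of the 4 arrays of each day in black. The upper row (Mpeg1, Nxpe5, Mmp13, Igf1) rose and the lower row (Cnn1, Col4a1, Hmgcs1, Mki67) fell in all 4 pairs, and the days do not overlap in any of the 8.

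Contractile genes fell. Of 23 tested genes of smooth muscle and stress fibres 18 were lower at 7 days and 0 higher, with a median of -0.60, and 17 were lower without the 7-day control arrays. Cnn1, the actin-binding protein calponin, read 10.12, 9.69, 9.61 and 9.40 at 3 days and 8.55, 8.42, 8.92 and 8.19 at 7 days, a 2.27-fold fall (difference -1.18 ± 0.12, SE, adjusted p 9.71e-06). The days did not overlap, and the smallest fall was in the male control pair. The nonmuscle myosin heavy chains Myh9 and Myh10 fell by 0.94 and 0.92, smooth muscle gamma-actin (Actg2) by 0.90 and leiomodin (Lmod1) by 0.90. The tropomyosins Tpm1 and Tpm2 fell by 0.79 and 0.85, transgelin (Tagln) by 0.72 and the light chain Myl9 by 0.70. Acta2, smooth muscle alpha-actin and the most used marker of myofibroblasts, fell by 0.46, from 13.15, 13.07, 12.98 and 12.84 to 12.57, 12.57, 12.58 and 12.46. Mylk, the myosin light chain kinase, gave 0.20 and did not pass. The mean level of the 23 genes was 8.73 to 8.97 at 3 days and 8.22 to 8.38 at 7 days, with no overlap.

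Targets of the factors YAP and SRF, which respond to actin tension, were lower in 15 of 29 tested and higher in 4, with a median of -0.28. Without the 7-day control arrays 10 were lower and 1 was higher, and without the female control or the female thyroxine pair 2 were higher. Ankrd1, a YAP target of the titin-binding ankyrin repeat family, fell from 9.31, 9.27, 8.67 and 8.28 to 8.80, 8.45, 8.19 and 7.73. Every pair fell, by 0.48 to 0.82, though the days overlapped because the female culture was the higher at both. The phosphatase Dusp1 fell by 0.80, the growth factor-binding Crim1 by 0.74, the receptor Axl by 0.58, Amotl2, an inhibitor of YAP, by 0.57 and Tead1, the DNA-binding partner of YAP, by 0.42. Ccn1 fell by 0.37, a call lost without the female thyroxine pair (adjusted p 0.062), the male control pair (0.072) or the 7-day control arrays (0.203), and Ccn2 gave -0.16 and did not pass. The 4 members that rose are immediate early or stress factors, Atf3 (0.85), Nr4a1 (0.50), Egr2 (0.48) and Jun (0.31). The last 3 lost their calls without the 7-day control arrays (adjusted p 0.119 to 0.244), and Egr2 and Jun also without the female control pair (0.0742 and 0.0944) or the female thyroxine pair (0.127 and 0.0849). Egr2 lost its call without the male control pair too (0.0647). The promoters of Ankrd1 and Ccn1 are shown for the TEAD element CATTCC, which was present on either strand in 9 of 13 windows of called-lower members (69.2%, windows for 12 of the 15 genes) and in 14.7% of all windows. Capitals mark it in the 250 bases before the start, as GGAATG where it lies on the opposite strand.
Ankrd1, chr19:36119845-36120094, minus strand: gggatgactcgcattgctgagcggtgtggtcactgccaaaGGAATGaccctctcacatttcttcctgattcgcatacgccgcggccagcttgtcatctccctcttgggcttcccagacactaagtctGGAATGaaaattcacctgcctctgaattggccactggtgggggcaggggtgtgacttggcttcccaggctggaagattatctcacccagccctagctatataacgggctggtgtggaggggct
Ccn1, chr3:145649986-145650235, minus strand: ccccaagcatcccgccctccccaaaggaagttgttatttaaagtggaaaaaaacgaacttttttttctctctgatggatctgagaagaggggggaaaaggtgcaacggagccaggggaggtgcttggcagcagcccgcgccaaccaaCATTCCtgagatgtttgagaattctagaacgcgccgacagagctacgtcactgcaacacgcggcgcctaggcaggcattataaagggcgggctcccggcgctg
Ankrd1 holds it at 210 and 123 bases before the start and Ccn1 at 103. This list too is one of known targets, so the share describes the list and shows no binding in these cells.

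The extracellular matrix changed in both directions. Of 20 tested collagens 10 were lower (50%, beside 8.64% of all genes) and 1 higher, with a median of -0.28. Without the 7-day control arrays the counts were 7 and 0. Leaving out the female control or the male thyroxine pair also left 0 higher. Col4a1 and Col4a2, the paired chains of basement membrane collagen, fell most. Col4a1 read 8.48, 8.65, 8.38 and 8.08 at 3 days and 7.10, 7.01, 6.84 and 7.05 at 7 days, a 2.63-fold fall (difference -1.40 ± 0.11, SE, adjusted p 9.61e-07), and Col4a2 fell by 1.08. The fibril-nucleating collagens Col5a1, Col5a2 and Col11a1 fell by 0.77, 0.92 and 0.80, Col6a3 by 0.77 and the fibril-associated Col12a1 by 0.76. Col1a1, the main collagen of bone, fell by 0.27 from 12.69, 12.75, 12.93 and 12.67 to 12.36, 12.39, 12.59 and 12.60 (adjusted p 0.0357). That call was lost without the female control pair (0.135), the female thyroxine pair (0.161), the male control pair (0.109) or the 7-day control arrays (0.349). Col1a2 and Col3a1 gave -0.20 and 0.10 and did not pass.

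Of 16 tested collagen-processing genes 8 were lower and 1 higher. Without the female control pair 4 were lower, and without the 7-day control arrays 3. The proteinase enhancer Pcolce2 fell by 0.89, the prolyl 3-hydroxylase P3h1 by 0.61 and the procollagen proteinase Bmp1 by 0.40, while the lysyl hydroxylase Plod1 rose by 0.57. Matrix glycoproteins and proteoglycans split, with 7 of 28 higher and 8 lower, and 8 and 4 without the 7-day control arrays. Tenascin C (Tnc) fell by 0.94 from a 3-day range of 10.20 to 10.61 to a 7-day range of 9.16 to 9.75, and the laminin chain Lama2, nidogen (Nid1) and versican (Vcan) fell by 0.76, 0.62 and 0.58. Among small leucine-rich proteins asporin (Aspn) rose by 1.04 from 7.23, 7.12, 7.91 and 7.93 to 8.23, 8.10, 9.0 and 9.02, and decorin (Dcn) by 0.52. In Aspn every pair rose by nearly the same amount and the male culture was the higher at both days. The elastic fibre gene Mfap4 rose by 0.93.

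Among 23 tested matrix proteases and inhibitors 3 were higher (13.0%, beside 12% of all genes) and 6 lower (26.1%, beside 8.64%). The share higher was thus near that of all genes. Without the 7-day control arrays 2 were higher and 1 lower, where 6.42% and 4.92% of all genes were called. The collagenase Mmp13 rose 4.0-fold from 5.25, 5.21, 6.72 and 6.54 to 7.74, 7.24, 8.30 and 8.44, and the stromelysin Mmp3 3.91-fold from 4.08, 3.86, 3.89 and 4.32 to 5.59, 5.36, 6.47 and 6.6. The 3-day values of Mmp3 lay near the level of the filter on low values (3.905), so the size of its fold is uncertain. The male culture had the higher Mmp13 at both days and the higher Mmp3 at 7 days. Adamts12, a metalloprotease of cartilage matrix, fell by 0.88. Mmp2 and Mmp14 gave -0.12 and -0.09 and did not pass.

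Adhesion genes were lower in 10 of 26 tested (38.5%, beside 8.64% of all genes) and higher in 4 (15.4%, beside 12%). Without the 7-day control arrays 9 were lower and 2 higher. N-cadherin (Cdh2) fell by 0.79 and Ncam1 by 0.83, and the fibronectin receptor chain Itga5 fell by 0.73. Cdh2 ranged over 10.02 to 10.43 at 3 days and 9.27 to 9.72 at 7 days. Cdh11, the mesenchymal cadherin of the suture list, gave 0.17 and did not pass. Over these contractile, matrix and adhesion groups the macrophage list rose by a median of 1.62, and its part in their falls was not tested. Of the 12 tested suture mesenchyme markers, 0 were higher and 3 lower (Col1a1, Msx2 and Alpl), with 8 of the 12 differences below 0 and a median of -0.11. Without the 7-day control arrays 1 was lower.

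Cell cycle genes fell in part. Of 49 tested genes 15 were lower (30.6%, beside 8.64% of all genes) and 2 higher, with a median of -0.20. Without the female control pair 9 were lower, without the female thyroxine pair 8 and without the 7-day control arrays 9; with arrays centred on their median 22 were lower. Most of the genes that fell act in mitosis. Cenpe, a kinetochore motor, fell by 0.97, Kif20a and Cenpf by 0.80 and 0.68, and Tpx2 and Cdc20, which act in the spindle and in anaphase onset, by 0.63 each. Mki67, the Ki-67 protein of cycling cells, read 8.28, 8.04, 8.70 and 8.37 at 3 days and 7.41, 6.83, 7.89 and 7.81 at 7 days (difference -0.86 ± 0.10, SE, adjusted p 5.49e-05). The female thyroxine pair fell most and the male thyroxine pair least, and the days did not overlap. Of genes that act in DNA replication, Rrm1, a ribonucleotide reductase subunit, and Gins2, of the replicative helicase, both fell by 0.45. The call of Gins2 was lost without the female control pair (adjusted p 0.138), the female thyroxine pair (0.0806), the male control pair (0.0532) or the 7-day control arrays (0.372). The sliding clamp Pcna and the helicase subunits Mcm2 to Mcm7 and Mcm10 gave differences from -0.24 to 0.12 and did not pass. The list's median pair difference was -0.39 and -0.32 in the female pairs but 0.00 and -0.09 in the male pairs (control and thyroxine), a difference that was not tested for the list. Of 20 cell cycle inhibitors and quiescence genes 3 were higher (15%, beside 12% of all genes) and 1 lower (5%, beside 8.64%). Without the 7-day control arrays the counts were 1 and 0. The inhibitors Cdkn1a, Cdkn1b and Cdkn2a gave 0.08, 0.13 and 0.17 and did not pass.

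Most sterol synthesis genes fell. Of 19 tested genes of the cholesterol list 14 were lower and 1 higher, with a median of -0.54, and 12 and 0 without the 7-day control arrays. Hmgcs1, which makes HMG-CoA at the head of the pathway, read 8.99, 9.11, 9.08 and 8.80 at 3 days and 7.94, 7.65, 8.19 and 7.78 at 7 days, a 2.15-fold fall (difference -1.10 ± 0.10, SE, adjusted p 4.09e-06). Cyp51, the lanosterol demethylase, went from 8.00, 8.15, 8.05 and 8.13 to 6.93, 7.04, 7.21 and 7.11, and squalene epoxidase (Sqle) fell by 0.99. Fdps, Fdft1, Msmo1 and Lss, further enzymes of the route, fell by 0.79, 0.69, 0.68 and 0.66. Ebp, a sterol isomerase, was the member that rose, by 0.40, a call lost without the male control pair (adjusted p 0.0525) and without the 7-day control arrays (0.243). Fatty acid synthesis had 7 of 13 tested genes lower and 0 higher, with Elovl6, Fasn, Acly and Scd1 down by 0.76, 0.75, 0.63 and 0.52. Without the 7-day control arrays 5 were lower.

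The promoters of Cdc20, Mki67 and Hmgcs1 are shown for the elements that such genes are known to carry: the cell cycle homology region TTTGAA, the CCAAT box, and the sterol element TCACNCCAC. TTTGAA was present on either strand in 10 of 12 windows of called-lower cell cycle genes (83.3%, windows for 11 of the 15 genes) and in 17.9% of all windows. CCAAT was in all 12 of these windows, in all 11 windows of called-lower cholesterol genes (11 of the 14 genes) and in 37.4% of all windows. The sterol element was in 1 of the 11 cholesterol windows (9.09%), that of Hmgcs1, and in 1.24% of all windows. Capitals mark these elements in the 250 bases before the start, with ATTGG for a CCAAT box on the opposite strand.
Cdc20, chr4:118437344-118437593, minus strand: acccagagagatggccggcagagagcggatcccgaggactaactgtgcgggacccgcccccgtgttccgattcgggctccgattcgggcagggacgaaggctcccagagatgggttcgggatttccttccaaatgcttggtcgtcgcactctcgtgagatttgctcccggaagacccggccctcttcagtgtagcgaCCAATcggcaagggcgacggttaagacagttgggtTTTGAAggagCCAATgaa
Mki67, chr7:135716380-135716629, minus strand: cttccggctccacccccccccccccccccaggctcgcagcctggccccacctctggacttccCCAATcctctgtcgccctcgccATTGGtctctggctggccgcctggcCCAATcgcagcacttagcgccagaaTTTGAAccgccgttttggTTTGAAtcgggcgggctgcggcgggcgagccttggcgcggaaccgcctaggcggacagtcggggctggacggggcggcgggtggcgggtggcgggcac
Hmgcs1, chr13:119690101-119690350, plus strand: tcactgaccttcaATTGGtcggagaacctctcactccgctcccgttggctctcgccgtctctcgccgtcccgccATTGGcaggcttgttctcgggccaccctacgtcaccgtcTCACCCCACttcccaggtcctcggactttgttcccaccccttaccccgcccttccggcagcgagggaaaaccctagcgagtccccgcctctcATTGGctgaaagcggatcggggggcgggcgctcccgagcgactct
Cdc20 holds TTTGAA at 18 bases before the start, between CCAAT boxes at 53 and 8. Mki67 holds it at 116 and 98, downstream of 3 CCAAT boxes. Hmgcs1 holds the sterol element at 137 bases before the start and 3 CCAAT boxes. The lists are of known targets, so these shares describe the lists and show no binding here.

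**Figure D3:**
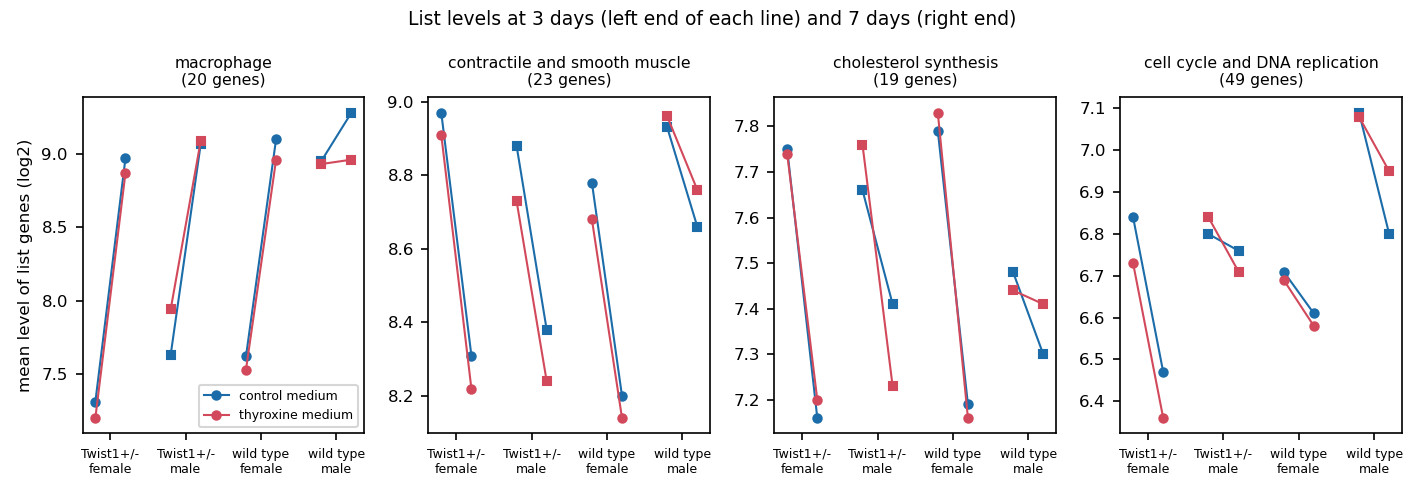
Mean level (log2) of the tested genes of 4 lists at 3 days (left end of each line) and 7 days (right end) in the female and male cultures of both genotypes, in control medium (blue) and thyroxine medium (red). The macrophage list starts at 7.2 to 7.94 in Twist1+/- cells and at 7.53 and 7.62 in wild-type female cells, but at 8.93 and 8.95 in the wild-type male culture. Vertical axes differ between panels and do not start at 0.

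Of 23 glycolysis and hypoxia genes 9 were higher (39.1%) and 0 lower, with a median of 0.22. Without the 7-day control arrays 5 were higher, and without the female control or the female thyroxine pair 6. Aldoc, Pdk1 and Pfkfb3, enzymes of glucose metabolism, rose by 0.75, 0.60 and 0.62 and carbonic anhydrase 9 (Car9) by 0.85, while Vegfa, Ldha and Pgk1 gave -0.19, 0.04 and 0.08 and did not pass. Of 19 oxidative stress genes 4 were higher and 4 lower (21.1% each, beside 12% and 8.64% of all genes), and 2 and 3 without the 7-day control arrays. Nqo1, the quinone reductase and a target of NRF2, fell in every pair, from 8.08, 8.23, 8.06 and 7.81 to 6.74, 6.29, 6.92 and 6.01, a 2.94-fold change with an adjusted p of 1.78e-06. Further NRF2 targets, Gclc and Txnrd1, fell by 0.45 and 0.41, but Hmox1 gave -0.03, while the extracellular antioxidants Sod3 and Gpx3 rose by 0.92 and 0.79. Of 12 heat shock genes 3 were lower and 0 higher, led by Hsph1 (-0.65) and the mitochondrial chaperone Hspd1 (-0.64). Of 29 amino acid and unfolded protein stress genes 7 were lower and 3 higher, and 4 were lower without the female control pair, the female thyroxine pair or the 7-day control arrays. Psph, of serine synthesis, fell by 0.49. Ribosomal protein genes had 4 of 25 lower and 0 higher, against 0 lower and 1 higher without the 7-day control arrays. Of 27 respiratory chain genes 4 were lower (14.8%, beside 8.64% of all genes) and 1 higher (3.7%, beside 12%). Leaving out the female thyroxine or the male thyroxine pair left 0 lower, and leaving out the female control pair or the 7-day control arrays left 2.

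Bone and suture genes that passed were mostly lower. Lower calls made up 23.1% of 13 tested osteoblast genes, 15.4% of 26 suture mesenchyme factors and 25.0% of 8 cartilage genes, beside 8.64% of all genes. Of the osteoblast genes 0 were higher and 3 lower: the phosphate transporter Slc20a1 by 0.50, the homeobox factor Msx2 by 0.43 and tissue-nonspecific alkaline phosphatase (Alpl), which mineralises bone matrix, by 0.49. Alpl went from 5.43, 5.39, 5.84 and 5.72 to 5.02, 5.07, 5.38 and 4.95 (adjusted p 0.0117), a call lost without the male thyroxine pair (0.076) and without the 7-day control arrays (0.0821). Dlx5, an osteoblast homeobox factor, gave 0.05. Sp7, Ibsp, Bglap, Phex and Dmp1, genes of later osteoblasts and osteocytes, were below the filter, and Runx2 was not analysed here. Of the 26 suture mesenchyme factors 4 were lower and 1 higher, and 22 of the 26 differences were below 0, with a median of -0.15. Without the female control or the female thyroxine pair 1 was lower, and without the male thyroxine pair or the 7-day control arrays 2. The midline factor Zic1 fell by 0.54, from 7.53, 7.45, 6.75 and 6.86 to 7.00, 6.71, 6.27 and 6.44, and the female culture was the higher at each day. Twist1 moved by -0.10 ± 0.17 (SE, adjusted p 0.725), and its pair differences were -0.83, 0.11, 0.61 and -0.31, so the pairs did not share a direction. Cartilage genes had 2 of 8 lower, Col2a1 by 1.06 and its regulator Sox6 by 0.55.

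Among signalling lists, the share of members called in either direction was 58.8% for insulin-like growth factor genes, 52.6% for TGF-beta, 41.4% for guidance, 35.0% for FGF, 28.0% for BMP and 20% for WNT genes, beside 20.6% of all genes. In the TGF-beta list, with 5 of 19 higher and 5 lower (3 and 2 without the 7-day control arrays, 3 lower without the female thyroxine or the male control pair, and 3 higher without the male thyroxine pair), the ligand Tgfb1, its receptor Tgfbr1 and the induced matrix protein Tgfbi rose by 0.93, 1.08 and 1.00, while the latent-form binding proteins Ltbp1 and Ltbp2 fell by 1.18 and 0.72. Ltbp1 went from 8.03, 8.36, 8.31 and 7.94 to 6.92, 6.80, 7.42 and 6.76. In the insulin-like growth factor list, with 3 of 17 higher and 7 lower (3 and 2 without the 7-day control arrays, and 4 lower without the female thyroxine or the male control pair), Igf1 rose 2.69-fold from 7.65, 7.6, 7.82 and 8.17 to 9.21, 9.22, 9.17 and 9.36, and its receptor Igf1r fell by 0.57. The male thyroxine array had the highest 3-day value here too, as for the macrophage markers. Among 20 FGF genes 5 were higher and 2 lower (3 and 2 without the 7-day control arrays, and 3 higher without the female thyroxine or the male control pair). The FGF feedback phosphatase Dusp6 and the ETS factor Etv1 rose by 0.83 and 1.01, and Fgfr2, a receptor whose mutations cause coronal synostosis, fell by 0.56 from a range of 6.77 to 7.59 to one of 6.25 to 7.17. In the WNT list 5 of 30 were higher and 1 lower (5 and 0 without the 7-day control arrays, and 0 to 2 lower without single pairs). The agonists Rspo3 and Rspo2 rose by 1.22 and 0.65 and the decoys Sfrp1 and Sfrp2 by 0.77 and 0.87. Rspo3 rose in every pair, from 6.66, 6.80, 7.17 and 7.32 to 7.98, 7.94, 8.29 and 8.62. In the BMP list 3 of 25 were higher and 4 lower, with 2 lower without the female control, the female thyroxine or the male thyroxine pair, and 2 higher without the 7-day control arrays. The antagonist Grem1 fell by 1.03 and the antagonist Chrdl1 rose by 0.72. Of 29 guidance genes 4 were higher and 8 lower, and 2 and 5 without the 7-day control arrays. Leaving out the female thyroxine or the male control pair also left 5 lower. Sema3e and Sema7a fell by 1.47 and 1.37, and Sema4d, a semaphorin of immune cells, rose by 1.54. Sema3e ranged over 7.94 to 8.86 at 3 days and 6.27 to 7.40 at 7 days. Of 17 clock genes 5 were higher (29.4%, beside 12% of all genes) and 0 lower, led by the repressor Bhlhe41 (1.63). Of 15 thyroid hormone genes 4 were higher (26.7%) and 1 lower (6.67%), with Klf9, a direct target of the hormone receptor, at -0.18 (adjusted p 0.236). Without the female thyroxine pair 2 of the thyroid hormone genes were higher. Of the lists not yet described, adipocyte genes had 2 of 16 higher and 2 lower (12.5% each) and p53 targets 2 of 19 higher and 2 lower (10.5% each). NOTCH genes had 2 of 13 higher (15.4%), tendon genes 2 of 11 higher (18.2%) and 1 lower (9.09%), and histones 2 of 7 higher (28.6%). Over all genes the shares were 12% higher and 8.64% lower. Among the genes with the largest fall in their least-changed pair were also the cochlear matrix protein Coch (-1.34), the signalling regulator Rgs4 (-1.13), the peptide-processing enzyme Cpe (-1.02) and the membrane skeleton protein Epb41l3 (-0.82). The 7-day values of Rgs4, 3.17 to 3.78, lay below the level of the filter on low values (3.905).

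Whether time acted alike in both media was tested as a difference of differences, and 21 genes passed (0.156%), 20 with the higher change in thyroxine medium. Of the 21, 7 were small RNA genes, gene models or pseudogenes. For the other 14 except Ndufa4l2, both control pairs were below 0 and below both thyroxine pairs. Ywhag, a 14-3-3 protein, read 9.27, 9.20, 9.22 and 8.72 at 3 days and 6.29, 9.14, 6.73 and 8.91 at 7 days, so that the 7-day control arrays alone were low. Its mean on those 2 arrays was 6.51, against 9.04 ± 0.23 (SD) on the other 14 arrays of the series, and the thyroxine pairs exceeded the control pairs by 2.80 ± 0.19 (SE, adjusted p 4.85e-05). The ribosomal protein Rps18 was 6.16 on the same 2 arrays against 8.56 ± 0.33 on the other 14, and the differences between media were 3.17 for Rps18, 2.49 for Tpt1, 2.56 for Tmem202, 3.38 for the ATP synthase subunit Atp5d and 2.58 for Zfp526. The serine protease Prss23 had the largest mean fall of all called genes (-1.96), with pair differences of -4.09, -1.02, -2.72 and 0.00. Ndufa4l2, a hypoxia-induced subunit, differed in another way: all 4 pairs rose, by 1.32 and 0.97 in control medium and by 2.59 and 2.35 with thyroxine. Alox5, the leukotriene enzyme, gave -0.56 and -0.53 in the control pairs and 0.87 and 1.42 in the thyroxine pairs. With 2 arrays per medium and day, medium and array cannot be told apart in these genes. Leaving out any pair left 1 gene (without the male control pair) or 0.

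**Figure D4:**
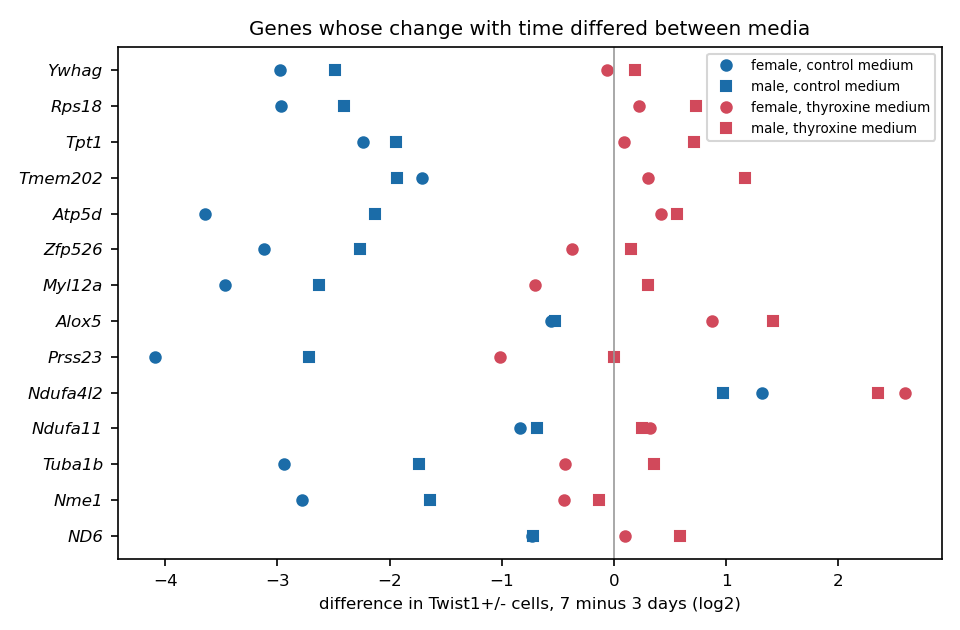
Differences between 7 and 3 days (log2) in the 4 Twist1+/- pairs for the 14 genes, other than small RNA genes, gene models and pseudogenes, whose change differed between media, circles for the female and squares for the male culture, blue for control and red for thyroxine medium. The blue points of Ywhag lie at -2.98 and -2.49 and the red ones at -0.06 and 0.19, while all 4 points of Ndufa4l2 lie above 0.

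The change with time did not pass a test of difference between the female and the male culture for any gene (limma, 0 called, 0.0%; 553 genes had an unadjusted p under 0.05, and the smallest adjusted p was 0.291). On simulated data this test recovered 6% of differences of 0.5 and 63% of differences of 1, so 0 calls do not show that the cultures changed alike. With 1 culture per sex, sex and culture cannot be told apart. The genes with the smallest p were Mmp12, a macrophage elastase that rose by 1.77 and 2.10 in the female pairs and by 0.67 and 0.51 in the male pairs, and Xist, which gave 1.74 and 1.51 in the female pairs and -0.07 and 0.07 in the male ones. Oasl2 differed by -1.0 (male minus female, adjusted p 0.609), with 1.28 and 1.44 against 0.50 and 0.22. Arhgap32, Rasl11b and Ulbp1 gave 1.24, 1.25 and 1.14 in the other direction, with adjusted p values of 0.693, 0.700 and 0.797.

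Time was also compared with the 8 wild-type arrays. No gene passed the test of a difference between genotypes in the change with time (limma, 0 called, 0.0%; 1405 genes had an unadjusted p under 0.05, and the smallest adjusted p was 0.356). Gsap, which encodes the gamma-secretase activating protein, gave 1.24 in Twist1+/- and 0.20 in wild-type cells, and the G protein subunit Gnaq gave 0.57 and 0.08. The chemokine Ccl5 gave 0.76 and -0.04. Olfr914, Rnase2b and Rprl2 had the smallest p in the other direction, with differences between genotypes of -1.18, -0.80 and -0.76 (adjusted p 0.356, 0.356 and 0.373). Neither direction is a call. On simulated data the genotype test recovered 15% of differences of 0.5 and 83% of differences of 1, so 0 calls do not show that the genotypes changed alike.

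The wild-type cultures themselves differed. Their 4 pairs together gave 56 calls (0.416%), of which 52 were also called in Twist1+/- cells, all 52 in the same direction. That is 92.9% of the wild-type calls and 1.87% of the Twist1+/- calls. The wild-type female pairs alone gave 1465 calls (10.9%), of which 1186 were shared (81% and 42.7% of the 2 sets) and 1184 of these ran the same way. Those pairs are the control and the thyroxine pair of the same culture, so the p-values of that fit measure the spread between media within it. The male pairs were not fitted alone, and the difference between the wild-type cultures was not tested. Across the 13453 genes, the mean difference in Twist1+/- cells correlated at 0.769 with that of the wild-type female culture and at 0.243 with that of the male culture. These values are across genes of arrays that were normalized together and carry no p. Among the genes called in Twist1+/- cells, 94.5% had the same sign in the wild-type female culture (68.4% of all genes) and 69.4% in the male culture (55.0% of all genes). Median differences of the genes called higher were 0.435 in the wild-type female culture and 0.115 in the male one, and of those called lower -0.44 and -0.08.

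The macrophage list showed the same split. Its mean level at 3 days was 7.62 and 7.53 on the wild-type female arrays but 8.95 and 8.93 on the male arrays, where it was already near the 7-day range of 8.96 to 9.28. Mpeg1 rose by 1.75 and 2.17 in the wild-type female pairs and by 0.72 and 0.42 in the male pairs, against 1.59 to 2.25 in Twist1+/- cells. The suture mesenchyme markers ran the other way, with a list mean of 8.82 to 8.87 at 3 days on the wild-type male arrays and 9.85 to 9.86 on the female ones. For Cnn1, the pair differences were -1.2 and -1.52 in the wild-type female culture and -0.82 and -0.69 in the male one, next to -1.57, -1.27, -0.69 and -1.21 in Twist1+/- cells. Cholesterol genes had median pair differences of -0.64 and -0.82 in the wild-type female culture and of -0.12 and -0.02 in the male, against -0.29 to -0.63 in Twist1+/- cells.

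**Figure D5:**
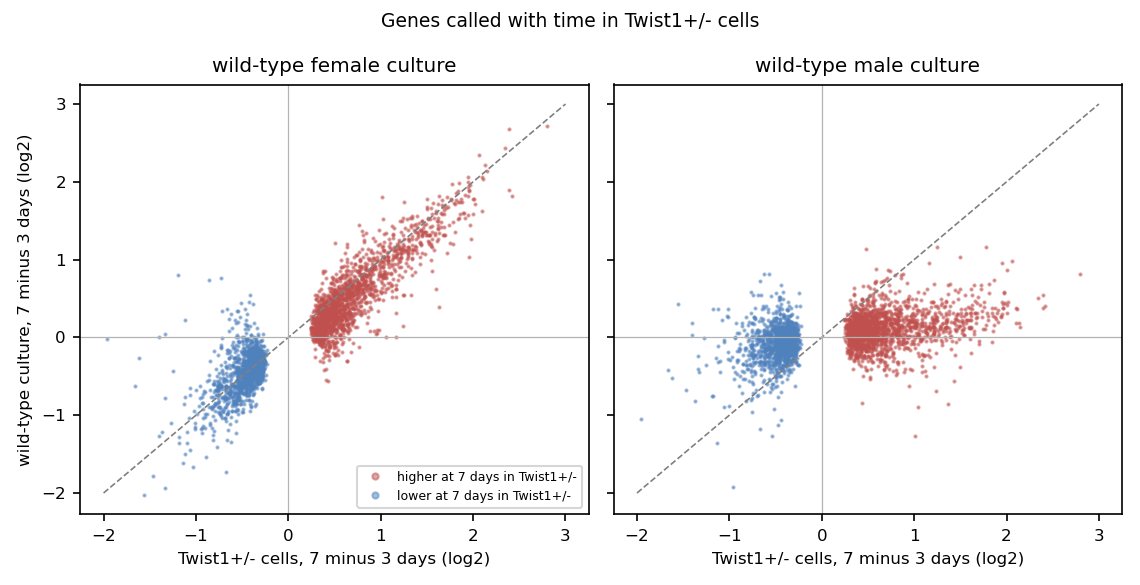
Each point is 1 of the 2776 genes called with time in Twist1+/- cells (red higher, blue lower at 7 days), with the Twist1+/- difference between 7 and 3 days (log2) on the horizontal axis and the mean difference of the wild-type female culture (left) or male culture (right) on the vertical axis; the dashed line marks equal values. In the female culture 94.5% of the points have the same sign as in Twist1+/- cells, and in the male culture 69.4%, with points close to 0.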

How the data were processed

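Total RNA of 16 samples from 4 cultures was hybridised to Affymetrix arrays, 1 per condition. The authors deposited log2 expression values per probe set, which per the submitters' processing notes were made with RMA in Expression Console, so brightness differences between whole arrays were removed before deposit. Of 41345 probe sets, 23521 had 1 gene symbol, 1814 several and 16010 none in the platform annotation, and the brightest probe set over all arrays stood for each of 22180 genes. The filter was the 40th percentile of mean level, 3.905. R 4.3.3 and limma 3.58.1 were used, with a term for each pair (culture and medium), an intensity trend and Benjamini-Hochberg adjustment at 0.05 over 13453 genes. Tests of difference compared the pairs' changes between genotypes, media and sexes. The SE is that of the moderated fit. The scripts were tested on simulated data.

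A pair shares its culture by the labels of genotype, sex and medium. Male minus female deviations at 3 and 7 days correlated across genes at 0.14 in control and 0.353 in thyroxine medium. The Twist1+/- arrays correlated with each other at 0.953 to 0.991 and none of them were identical. The wild-type arrays were not part of this check. Whether the 3 wells per condition were pooled, and the genome build of the array annotation, were not given. The number of arrays limits the precision.

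Genes were named by rule: up to 12 per direction ranked by their smallest pair difference, up to 4 per list by p, up to 6 per direction for each test of difference, and Twist1, Mki67, Col1a1, Alpl, Il6 and Klf9 always. Further genes, among them list members that did not pass, were chosen after their values were seen. The comparison, its members and the lists were chosen with earlier results of these data known. Of the listed genes, 94 were not analysed here.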

Additional observations from a re-analysis of the deposited data

Results flagged for a closer look

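Of 370 groups of 4 arrays searched, 11 held an array far from the other 3. For independent arrays of the same kind chance gives about 1 in 20, and these 11 are fewer than that. The arrays of a day differ by culture and medium, and many of the genes were chosen by their small p in these data. The count therefore cannot be judged against chance. At 3 days, the male thyroxine array was apart for Col4a2 (8.08, others 8.46 to 8.51), Car9 (4.66, others 4.15 to 4.17), Ywhag (8.72, others 9.20 to 9.27) and Tmem202 (6.73, others 7.27 to 7.30). The male control array was apart at 3 days for Sdf2l1, a chaperone cofactor of the endoplasmic reticulum (6.78, others 7.22 to 7.24), and for Gnaq (7.84, others 7.78 to 7.79). The female thyroxine array was apart at 3 days for the tendon factor Scx (7.38, others 7.48 to 7.5) and at 7 days for Ms4a6d (8.89, others 9.48 to 9.56). At 7 days the male control array was apart for Hspd1 (8.62, others 8.31 to 8.34) and the ribosomal protein Rpl3 (8.47, others 9.01 to 9.12), and the female control array for Trp53inp1, a p53 target (8.11, others 7.87 to 7.91).

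The change with time was higher in thyroxine than in control medium, by a test of the difference itself, for Ywhag (2.80), Rps18 (3.17), Tpt1 (2.49), Tmem202 (2.56), Atp5d (3.38) and Zfp526 (2.58), on the log2 scale in Twist1+/- cells. In each of these genes the mean of the 2 control arrays at 7 days lay below every other array of the series. For Ywhag it was 6.51, against a mean of 9.04 on the other 14. Medium and array therefore cannot be told apart here.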

How the results depend on the processing

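The number of genes changed with time was 2776 and lay between 1901 and 3159 in 12 of the 15 alternatives, among them no intensity trend, other filters, means of a gene's probe sets, centred arrays, all 16 arrays and each pair left out. It was 838 in control pairs alone, 856 in thyroxine pairs alone and 1526 without the 7-day control arrays, which hold fewer arrays. Without the pairing, as a fit with no replicate block, it was 2242, and with the culture as a random block in place of the pair 2461. Of 167 named genes past the threshold, 75 stayed past it in all 15 alternatives and 117 in the 13 other than the single-medium fits. The test between genotypes gave 0 calls except in control pairs alone, where it gave 10. The test between media gave 21 calls, 2 with no intensity trend, 37 with means of probe sets, 8 with no replicate block, and 0 to 1 when a pair was left out, where the lone pair was assumed to vary like the others. The cause was not tested. Fits without the 7-day control arrays, of the wild-type female culture alone, and with pairs left out of the tests between media and sexes were added after seeing the data. Directions turned for Hspa1b (0.12) and H1f5 (-0.23) in control pairs alone. In thyroxine pairs alone they turned for Ywhag (0.07), Rps18 (0.48), Tpt1 (0.40), Tmem202 (0.74), Atp5d (0.49) and Ulbp1 (-0.08). Differences without the 7-day control arrays rest on the same pairs and turned for the same genes. Arhgap32 gave 0.03 in control pairs alone. With a pair left out, Arhgap32 ranged from -0.34 to 0.16, Ulbp1 from -0.23 to 0.28 and Twist1 from -0.34 to 0.14. Of all the genes whose direction turned, Ywhag was called with time, and Rps18 and Tmem202 were past the threshold without the 7-day control arrays (adjusted p 0.0472 and 0.0281).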
